A study of Mus musculus with 13 samples.

Results

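The comparison described here sets the heart of newborn mice at postnatal day 1 (P1 heart) against mouse embryonic fibroblasts (MEFs). It rests on the array labelled heart (P1) and the array labelled fibroblasts (MEFs), 2 of the 13 arrays of a study of cardiac reprogramming under defined culture conditions, and takes in all genes those arrays name. The other arrays held the heart at embryonic day 12 (E12 heart), fibroblasts labelled TTFs, the usual short form of tail-tip fibroblasts, and induced cardiomyocyte-like cells (iCMs), which are fibroblasts turned towards heart muscle with transduced factors. Of the iCM arrays, 6 held GMT iCMs (Gata4, Mef2c and Tbx5) at 2 and 4 weeks in medium with serum (FBS), without serum (SF) or with FGF2, FGF10 and VEGF (FFV), sorted for a GFP reporter of the αMHC promoter, and the remaining iCM arrays held MT iCMs, with Mef2c and Tbx5, in FFV and GMTMM iCMs (GMT, Mesp1 and Myocd) from TTFs in FFV or in FBS. Neither P1 heart nor MEFs received a factor or a sort per the labels, which give no strain, genotype, sex, pooling or passage for them. P1 heart is labelled as heart with no chamber named. Total RNA of all samples was taken with a kit for cells, amplified, coupled to the Cy5 dye and read on 1 array each.

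The fibroblast is the cell that reprogramming starts from and the heart is the tissue it is compared with. Heart muscle cells contract through sarcomeres, in which thick filaments of myosin pull on thin filaments of actin, troponin and tropomyosin between Z-discs, and calcium released from the sarcoplasmic reticulum starts each beat. They meet their energy needs largely in mitochondria, and around birth the heart turns from glycolysis towards the oxidation of fatty acids. Fibroblasts make and remodel the collagen matrix, and cultured embryonic fibroblasts keep the Hox codes of the body region they came from. A heart also holds endothelial, smooth muscle, epicardial, blood and fibroblast cells, so its RNA is a mixture.

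Values are the authors' deposited intensities, which lie on each array as the spot signal less the blank spots, scaled so that the median listed value is 25. The lowest listed value was 0.872 on the P1 heart array and 0.689 on the MEF array. On the same scale the SD of the blank spots between the 5th and 95th percentile came to 0.436 on the P1 heart array and 0.345 on the MEF array. Over all blank spots the SD would be larger. Copies of the positive controls varied with a coefficient of variation of 11.7% and 14.5% on the P1 heart array and of 8.71% and 9.49% on the MEF array. The fold ranges below use only the SD of the trimmed blanks and leave this variation out, so they are narrow. P1 heart had a listed value for 92.4% and MEFs for 91.4% of 23473 probes. There was 1 array per group, so no difference below has a replicate check, an SD or a test, and animals or cultures may differ by amounts not measured here. A gene is called higher or lower when the arrays differed at least 2-fold, and where a gene was empty in the array with less signal its fold is a lower bound, set against that array's lowest listed value and written with the words at least. Differences are log2 P1 heart minus MEFs.

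Among genes at least 16-fold higher in P1 heart, a larger share of promoters than of all promoters held short motifs read by muscle regulators. The promoters of 4 of the 6 genes furthest above MEFs in P1 heart are shown. Each runs 5′ to 3′ on the gene's own strand, from 250 bases before the annotated start to 50 bases after it, as RefSeq gives it for GRCm38.p6, with the matched motif in capitals. Myoz2 and Mybpc3 carry a MEF2 site, and Smpx carries AGATAA, a core read by GATA factors, on 2 occasions. Myh6 held none of the motifs of muscle regulators and carries TATAAA at its annotated start. Of the 2 other promoters scanned for single matches, that of Myl2 held AGATAA once, 211 bases before the start, and that of Csrp3 held none of the 4 motifs. Myl2 and Csrp3 each had 2 annotated windows, and only the window furthest upstream was scanned. The same rule was used for every gene in the shares below.
Myoz2, chr3:123034938-123035237, minus strand: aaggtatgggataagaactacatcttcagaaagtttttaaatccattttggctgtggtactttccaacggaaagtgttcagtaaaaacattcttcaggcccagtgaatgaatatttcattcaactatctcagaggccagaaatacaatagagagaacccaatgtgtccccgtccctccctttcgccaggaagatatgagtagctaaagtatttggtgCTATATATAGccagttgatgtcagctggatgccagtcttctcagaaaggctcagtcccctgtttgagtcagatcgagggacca
Mybpc3, chr2:91117894-91118193, plus strand: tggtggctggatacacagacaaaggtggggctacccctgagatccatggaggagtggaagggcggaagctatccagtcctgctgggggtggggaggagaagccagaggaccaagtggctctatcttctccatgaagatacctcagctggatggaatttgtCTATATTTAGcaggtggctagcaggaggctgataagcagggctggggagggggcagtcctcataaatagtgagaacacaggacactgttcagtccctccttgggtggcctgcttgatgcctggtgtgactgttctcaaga
Smpx, chrX:157698723-157699022, plus strand: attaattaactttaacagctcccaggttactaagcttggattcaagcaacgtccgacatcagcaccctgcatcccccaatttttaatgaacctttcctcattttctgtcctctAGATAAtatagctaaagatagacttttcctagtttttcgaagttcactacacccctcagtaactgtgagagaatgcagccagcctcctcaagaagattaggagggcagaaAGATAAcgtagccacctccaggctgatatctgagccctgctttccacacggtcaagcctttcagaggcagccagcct
Myh6, chr14:54966558-54966857, minus strand: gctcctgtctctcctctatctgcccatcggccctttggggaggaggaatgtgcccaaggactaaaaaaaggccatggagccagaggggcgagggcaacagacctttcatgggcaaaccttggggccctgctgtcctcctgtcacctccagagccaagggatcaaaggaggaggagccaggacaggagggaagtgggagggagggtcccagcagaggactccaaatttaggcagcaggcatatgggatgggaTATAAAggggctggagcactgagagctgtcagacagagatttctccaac

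Myoz2 encodes calsarcin-1, a Z-disc protein, and its MEF2 site lies 33 bases before the start, while that of Mybpc3, cardiac myosin-binding protein C, lies 90 bases before it. Smpx, a small muscle protein, and Myh6, the α-myosin heavy chain whose promoter drives the reporter of the iCMs, had no MEF2 site in this window. Of the 167 genes at least 16-fold higher in P1 heart that had a promoter in the table, 20 (11.98%) held a MEF2 site, against 2 of 113 (1.77%) of the genes at least 16-fold lower. The share was 2.43% over the 12529 measured genes with a promoter and 3.29% over all 27025 promoters. The 20 genes included Ttn, Casq2, Pgam2, Srpk3 and Fgf12 besides Myoz2 and Mybpc3. The CArG box of serum response factor was found in 4.19% of the promoters of the genes at least 16-fold higher, in 1.77% of those of the genes at least 16-fold lower and in 1.40% of those of all measured genes. AGATAA was found in 17.96%, 7.08% and 8.32% of the same sets. TATAAA did not separate the directions in that way, with 17.4% for the higher genes and 21.2% for the lower genes, against 10.4% of all measured genes. Both strands were searched, each motif was counted on its own so that 1 stretch could count for several, and a match describes these letters and not a bound site.

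Of 15663 genes measured, 2159 (13.8%) were higher and 2557 (16.3%) lower in P1 heart than in MEFs. The list counts below are to be read beside these shares. At 4-fold the counts were 792 (5.06%) and 871 (5.56%), and at 16-fold they were 221 (1.41%) and 154 (0.983%). With the deposited values, differences of at least 16-fold were thus more often towards heart, and no alternative was run at 16-fold. Empty values took 0.872 in P1 heart and 0.689 in MEFs, which bounds folds towards MEFs sooner. The median difference over all genes was -0.01, with quartiles of -0.65 and 0.57. Many of the calls were of dim genes: 926 of the higher genes (42.9%) stayed below a value of 25 in P1 heart, and 606 of the lower genes (23.7%) stayed below 25 in MEFs. The scanner signals with normexp and quantile normalisation gave 948 higher and 1045 lower genes, 47.6% of the calls towards heart, against 45.8% with the deposited values. With median centring after normexp the counts were 617 higher and 1662 lower genes, 27.1% towards heart. The normexp correction adds an offset of 50 and draws dim genes together: with quantile normalisation the median of the Hox list came to -0.30, that of the ion channels to 0.55 and that of calcium handling to 0.63, nearer to 0 than with the deposited values.

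**Figure D1:**
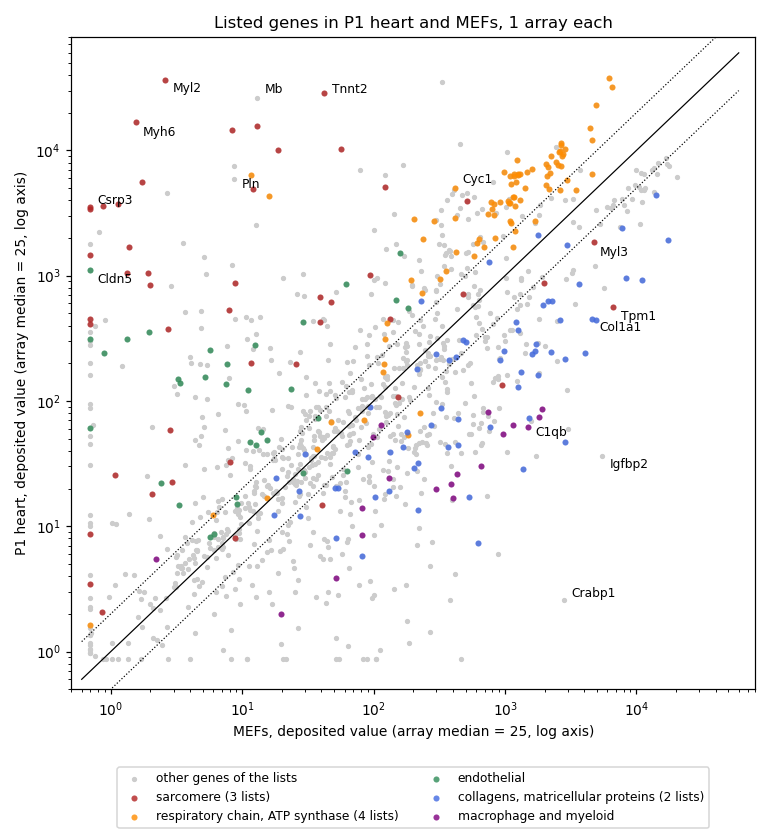
Deposited values of the genes on the lists in P1 heart (vertical axis) and MEFs (horizontal axis), 1 array each, both axes logarithmic, with points coloured by group, a solid line of equal value and dotted lines at 2-fold. Sarcomere genes lie in the upper left, respiratory chain genes run as a band above the line at high values, and collagens, matricellular proteins and macrophage genes lie below it.

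Genes of the heart muscle cell stood at the top of the comparison. Myl2, the ventricular regulatory light chain, was listed at 36272 in P1 heart against 2.59 in MEFs, and Myh6 at 16896 in P1 heart against 1.54 in MEFs. These are differences of 13.78 and 13.42, and because the MEF values lie near the blanks the folds are loose: for Myl2 a shift of the MEF value by 2 SD of the blanks either way gives 11071-fold to 19139-fold, and for Myh6 7568-fold to 19845-fold. Csrp3, the muscle LIM protein, was at least 5118-fold higher, and Myoz2 was at least 4919.8-fold higher. Mybpc3, Smpx and Actn2, the α-actinin of the Z-disc, were 4069-fold, 3298-fold and 3225-fold higher, and Ttn, the giant spring titin, was at least 2125-fold higher. These folds are loose too, with MEF values of 0.877 for Mybpc3, 1.13 for Smpx and 1.74 for Actn2. The same shift, stopped at the lowest listed value, gives 2277-fold to 5181-fold for Mybpc3. It gives 2049-fold to 5420-fold for Smpx and 2308-fold to 5352-fold for Actn2. Mb, the oxygen store myoglobin, was listed at 26293 in P1 heart against 13.1 in MEFs, and Ckm, the muscle creatine kinase, at 4534 in P1 heart against 2.69 in MEFs. The 15 highest differences also held Apobec2 (2742-fold), Adprhl1 (at least 2592-fold), Myl7 (1757-fold), Casq2 (at least 1615-fold) and claudin 5, a junction protein known from endothelium (Cldn5, at least 1596-fold). For Apobec2, at 0.811 in MEFs, that shift gives 1481-fold to 3227-fold.

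Within the sarcomere 40 of 48 measured genes were higher and 5 lower, with a median difference of 4.98. In the thick filament 8 of 9 genes were higher with a median of 9.62, among them Myl7, the atrial light chain, at 14662 in P1 heart against 8.34 in MEFs, Myh7, the β-myosin heavy chain, at 378 in P1 heart against 2.71 in MEFs, and Mylk3, the cardiac myosin light chain kinase, at 1048 in P1 heart against 1.33 in MEFs. The thin filament had 8 of 12 genes higher and a median of 5.10. Its troponins were far apart on the arrays: Tnnc1 was listed at 15768 in P1 heart against 12.9 in MEFs, Tnnt2 at 28579 in P1 heart against 42.2 in MEFs and Tnni3, the adult cardiac inhibitory subunit, at 10071 in P1 heart against 18.6 in MEFs. Tnni1, the slow skeletal form that the fetal heart uses, was still listed at 10325 in P1 heart against 56.3 in MEFs. Of the Z-disc and M-band genes 24 of 27 were higher, with a median of 4.12.

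The sarcomere genes that ran the other way were 3 tropomyosins, Myl3 and Myh10. Tpm1 was listed at 558 in P1 heart against 6678 in MEFs and Tpm2 at 133 in P1 heart against 939.8 in MEFs, with Tpm3 at 867 in P1 heart against 1993 in MEFs, and the non-muscle myosin Myh10 was at 14.9 in P1 heart against 40.5 in MEFs. Tropomyosins also serve stress fibres of non-muscle cells, and the files do not say which isoforms the probes read. Myl3, named as the ventricular essential light chain, was listed at 1864 in P1 heart against 4723 in MEFs, and the same probe read 3679 in E12 heart against 3809 in TTFs and 4796 to 9569 over the 6 GMT iCM arrays. It was thus bright on every array, fibroblasts included, and whether this probe reads Myl3 was not tested.

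Genes of cell contacts and of calcium handling included some of the widest differences next to genes that were level. At the intercalated disc, where neighbouring muscle cells join, 10 of 16 genes were higher with a median of 1.24. The desmosome gene Dsp was listed at 829.8 in P1 heart against 2.88 in MEFs, and Popdc2, a cyclic AMP binding membrane protein of muscle, at 1403 in P1 heart against 5.13 in MEFs. Gja1, the main gap junction gene of working muscle, was bright on both arrays at 3648 in P1 heart against 1841 in MEFs, a difference of 0.99 just short of 2-fold. Of the calcium genes 16 of 27 were higher and the median was 1.68. Pln, phospholamban, the inhibitor of the calcium pump, was listed at 5924 in P1 heart against 8.67 in MEFs. The pump itself, Atp2a2, was at 11338 in P1 heart against 458 in MEFs. The release channel Ryr2 had 199 in P1 heart and was empty in MEFs. The calcium store protein Casq2 was at least 1615-fold higher, and Srl, sarcalumenin, was at 444 in P1 heart against 0.898 in MEFs.

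Of the ion channel genes 14 of 22 were higher and none lower, with a median of 1.57. Kcne1, a potassium channel subunit, was listed at 1827 in P1 heart against 3.54 in MEFs, and Abcc9, the sulfonylurea receptor subunit of the heart, at 394 in P1 heart against 0.762 in MEFs. Kcnip2, a subunit of the transient outward current, was at 64.8 in P1 heart against 0.728 in MEFs. Genes of the conduction system did not stand apart in the same way, with 4 of 14 higher, 2 lower and a median of 0.62, and Shox2, a sinus node regulator that limb mesenchyme also uses, was listed at 2.85 in P1 heart against 53.6 in MEFs. Of the signalling genes of the adrenergic, muscarinic and endothelin pathways 12 of 20 were higher and the median was 1.34, with the muscarinic receptor Chrm2 at 152 in P1 heart against 7.86 in MEFs. Kinases and ubiquitin ligases enriched in heart were higher in 15 of 18 cases with a median of 3.76, and Asb2, a subunit of a muscle ubiquitin ligase, was at 512 in P1 heart against 3.69 in MEFs.

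Among the secreted products of the heart, Nppa, which encodes the atrial natriuretic peptide, was listed at 7493 in P1 heart against 8.68 in MEFs, and Nppb, the B-type peptide, at 442 in P1 heart against 11.7 in MEFs. Corin, the protease that activates these peptides, was at least 433-fold higher. In all 5 of 9 genes of this list were higher, with a median of 2.35, which came to 0.28 under normexp with quantile normalisation. Genes used to mark atrium and ventricle were mostly higher on both sides (15 of 17, median 2.97), including the ventricular Myl2 and the atrial Myl7 and Myl4.

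Transcription regulators of the heart included genes that were nearly level, with 20 of 38 higher, 1 lower and a median of 1.11. Tbx20, a T-box factor of the heart, was at least 404-fold higher. Hopx was listed at 6305 in P1 heart against 122 in MEFs, and Ppargc1a and Ppara, which drive mitochondrial and fatty acid genes, were at 453 in P1 heart against 8.80 in MEFs and at 133 in P1 heart against 3.03 in MEFs. Of the reprogramming factors with a probe, Gata4 was listed at 48.3 in P1 heart against 4.39 in MEFs and Tbx5 at 44.2 in P1 heart against 4.65 in MEFs. The direction of Tbx5 turned to -0.67 when the local surround of each spot was subtracted. Hand2 was at 59.6 in P1 heart against 14.3 in MEFs. The gene that was lower, Irx1, was at 27.6 in P1 heart against 128 in MEFs. Probes for Mef2c, Nkx2-5 and Actc1 are not named in the table used and were not analysed here.

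Mitochondrial genes were mostly higher in P1 heart. Of 86 measured genes of the respiratory chain and ATP synthase, 71 were higher and 2 lower, with a median of 1.80. Complex I had 27 of 35 genes higher (median 1.62), complexes II and III 14 of 14 (median 2.21), complex IV 13 of 19 (median 1.60) and complex V with the ADP/ATP carriers 17 of 18 (median 1.86). Cyc1, cytochrome c1, was listed at 5023 in P1 heart against 416 in MEFs, Ndufv1 of complex I at 2711 in P1 heart against 288 in MEFs and Atp5a1 of ATP synthase at 8359 in P1 heart against 1223 in MEFs. The genes that were lower were Ndufb2 and the testis form Cox6b2, with differences of -1.49 and -1.77. Around the chain, 23 of 25 genes of the citrate cycle and pyruvate dehydrogenase were higher (median 1.89), with the pyruvate dehydrogenase subunit Pdhb at 2796 in P1 heart against 296 in MEFs. Genes that maintain mitochondrial DNA, coenzyme Q and mitochondrial shape were higher in 14 of 25 cases (median 1.33), with the superoxide dismutase Sod2 at 4271 in P1 heart against 577 in MEFs.

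Fatty acid use was the metabolic list with the largest median, 2.65, and 29 of 38 of its genes were higher against 3 lower. Cpt1b, the muscle form of the enzyme that commits fatty acids to oxidation, was listed at 1021 in P1 heart against 5.25 in MEFs. Fabp3, the heart fatty acid binding protein, was at 34962 in P1 heart against 329 in MEFs, and the fatty acid transporter Cd36 was at 3082 in P1 heart against 143 in MEFs. Fabp4, a binding protein of capillary endothelium and fat, was at 7603 in P1 heart against 167 in MEFs, and all 8 endothelial markers were higher on the same array, with sums of 2626 in P1 heart and 45.5 in MEFs. Plin1 and Cfd, the 2 of 3 fat markers measured, summed to 18.6 in P1 heart and 13.7 in MEFs. The part of those cells in the result was not tested. Genes of ketone and branched-chain amino acid breakdown split more evenly, with 7 of 15 higher, 2 lower and a median of 0.999, and Bcat1, the cytosolic transaminase, was far lower at 16.1 in P1 heart against 395 in MEFs. Myoglobin, creatine and phosphate genes were higher in 8 of 14 cases (median 1.30), with Ckmt2, the mitochondrial creatine kinase of muscle, at 1029 in P1 heart against 29.1 in MEFs.

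Glycolysis genes went both ways, with 10 of 32 higher (31.25%) and 7 lower (21.9%), against 13.8% and 16.3% of all genes. The median was 0.58, and some forms of the same enzyme went opposite ways. A set of 16 pairs of related genes was chosen after their values were seen, each with the gene further towards P1 heart named first, so that order is fixed by the choice. In 3 of the pairs, Tnni3 and Tnni1, Myh6 and Myh7, and Myl2 and Myl7, both genes are known from heart or muscle. Pgam2, the muscle phosphoglycerate mutase, was listed at 2542 in P1 heart against 12.8 in MEFs, whereas Pgam1 was at 1186 in P1 heart against 4795 in MEFs. Eno3, the muscle enolase, was at 6923 in P1 heart against 78.2 in MEFs, whereas Eno1 was at 1041 in P1 heart against 3231 in MEFs. The insulin-sensitive glucose transporter Slc2a4 differed by 3.45 and the widely used Slc2a1 by -1.95, and the lactate carriers Slc16a1 and Slc16a3 by 1.51 and -1.98. In the respiratory chain, the muscle forms Cox6a2 and Cox8b differed by 8.07 and 9.10, against 0.49 and 0.48 for Cox6a1 and Cox8a. For creatine kinase the differences were 10.72 for Ckm and 0.25 for Ckb, and for α-actinin they were 11.66 for Actn2 and -2.78 for Actn1. The smallest gap was between the ADP/ATP carriers Slc25a4 and Slc25a5, at 2.62 and 1.39. In E12 heart against TTFs the first gene was further towards heart in 12 of the pairs and not in 4: the differences there were 0.41 for Slc25a4 and 0.88 for Slc25a5, 0.85 for Pfkm and 3.52 for Pfkp, 6.95 for Tnni3 and 6.999 for Tnni1, and 1.68 for Slc16a1 and 1.69 for Slc16a3.

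**Figure D2:**
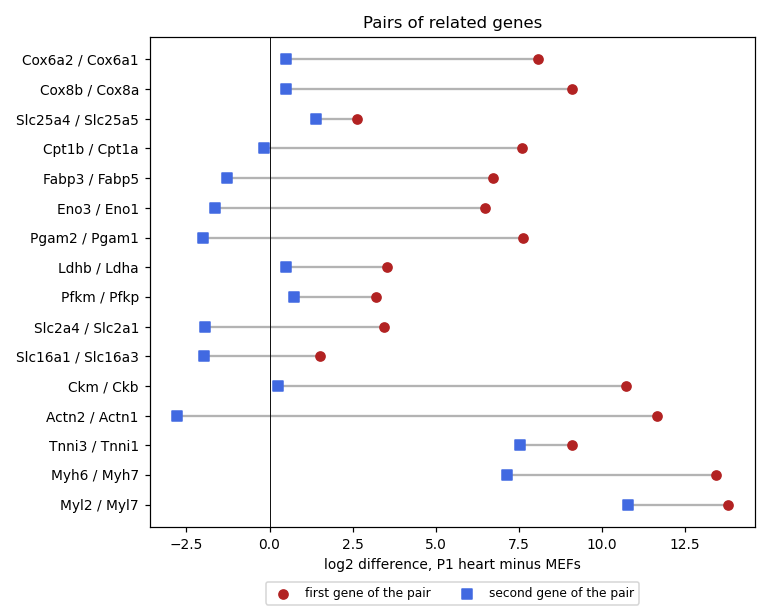
Log2 difference, P1 heart minus MEFs, for 16 pairs of related genes, 1 array each, with the first gene of the pair as a red circle and the second as a blue square. The first gene was chosen as the one further to the right, and the gap runs from 1.23 for Slc25a4 and Slc25a5 to 14.4 for Actn2 and Actn1.

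Markers of other cell types moved with this comparison. All 10 cardiomyocyte markers were higher, with a summed value of 120050 in P1 heart and 86.4 in MEFs, where Ttn and Ryr2 were empty and 4 of the 10 were below 2. Of the 10 fibroblast markers 9 were lower, with a sum of 10164 in P1 heart and 43417 in MEFs, and Dcn, decorin, stayed within 2-fold at 2118 in P1 heart against 1783 in MEFs. All 8 endothelial markers were higher, summing to 2626 in P1 heart and 45.5 in MEFs, where Pecam1 and Cldn5 were empty. Each label had its defining markers, and P1 heart also carried fibroblast and endothelial markers. In such bulk RNA fewer cells of a type and less RNA per cell cannot be told apart. Erythroid markers summed to 356 in P1 heart and 12.8 in MEFs over the 2 measured of 5, epicardial markers to 295 in P1 heart and 118 in MEFs with 4 of 5 higher, and smooth muscle markers to 5073 in P1 heart and 16355 in MEFs with 4 of 6 lower. Markers of skeletal muscle, nerve, cartilage, epithelium, lung, liver and thymus were low on both arrays, with sums of 8.32 (lung) to 112 (cartilage) in P1 heart and of 2.35 (lung) to 96.8 (nerve) in MEFs. Some of these sums rest on part of the markers: 1 of 2 for lung, 3 of 6 for nerve and 2 of 3 for liver. For thymus and for epithelium 3 of 4 were measured.

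On the longer lists, 26 of 33 endothelial genes were higher with a median of 3.26. Pecam1, an adhesion molecule of endothelial junctions, was at least 449.7-fold higher, the receptor Tie1 was listed at 356 in P1 heart against 1.95 in MEFs and the transcription factor Sox18 at 311 in P1 heart against 1.34 in MEFs. Of the epicardial genes 5 of 14 were higher (median 0.54), led by Tcf21, a factor of epicardium and cardiac fibroblasts, at 224 in P1 heart against 3.97 in MEFs. Of the erythroid genes 3 of 7 were higher (median 0.66), led by the heme enzyme Alas2 at 343 in P1 heart against 12.8 in MEFs. Skeletal muscle genes were near the shares over all genes (13.8% higher, 16.3% lower), with 4 of 23 higher and 4 lower (17.4% each, median 0.23). The higher ones were Tnnt1, Myl1, Des and Acta1, which embryonic heart also uses.

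**Figure D3:**
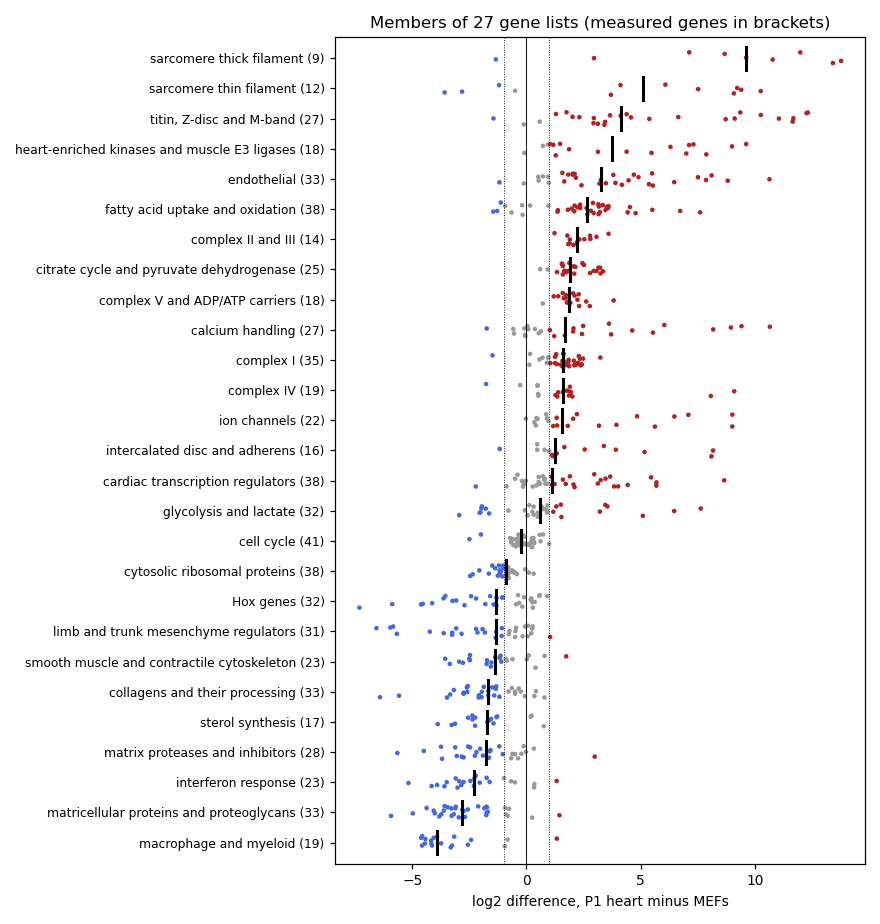
Log2 difference, P1 heart minus MEFs, of the measured genes on 27 lists, 1 array each, with 1 list per line, a point per gene (red at least 2-fold higher, blue at least 2-fold lower, grey between) and a bar at each list's median. Sarcomere lists reach furthest to the right, mitochondrial lists sit in a tight group right of 0, and macrophage and matricellular lists lie furthest to the left.

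Genes of the fibroblast matrix were lower in P1 heart. None of 33 collagen and collagen-processing genes was higher and 23 were lower, with a median of -1.67. Col1a1 was listed at 452 in P1 heart against 4583 in MEFs, Col1a2 at 1924 in P1 heart against 17443 in MEFs and Col3a1 at 4397 in P1 heart against 14039 in MEFs, so the fibrillar collagens stayed well above the blanks in the heart. Lox, which cross-links collagen, was further apart at 28.6 in P1 heart against 1368 in MEFs. Of the matricellular proteins and proteoglycans 27 of 33 were lower (median -2.81), and the 1 higher was Mfap5 at 623 in P1 heart against 229 in MEFs. Fbln5, fibulin 5 of elastic fibres, was at 240.5 in P1 heart against 4025 in MEFs, Thbs1, thrombospondin 1, at 17.01 in P1 heart against 536 in MEFs and Postn, periostin, at 581 in P1 heart against 1938 in MEFs. The lectin Lgals3, which macrophages make as well, was at 47.2 in P1 heart against 2877 in MEFs. Of the proteases and inhibitors 19 of 28 were lower (median -1.77), with Timp1 at 58.01 in P1 heart against 753 in MEFs. Fn1, fibronectin, was at 958 in P1 heart against 8282 in MEFs.

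Surface and mesenchyme markers of fibroblasts were lower in 15 of 25 cases (median -1.31). Thy1 was listed at 69.1 in P1 heart against 1562 in MEFs and S100a4 at 36.02 in P1 heart against 1732 in MEFs. The 4 genes of this list that were higher in P1 heart were Tcf21, Cd34, Dpt and Eng, of which Cd34 and Eng are also endothelial. The contractile cytoskeleton shared by smooth muscle and stress fibres was lower in 15 of 23 genes (median -1.37), with Tagln at 209.8 in P1 heart against 2472 in MEFs and Acta2, the smooth muscle actin, at 4679.6 in P1 heart against 13568 in MEFs. Integrins and laminins showed no common direction (7 of 32 higher, 4 lower, median 0.10), though Itgb1bp2, melusin, a muscle integrin partner, was at 1205 in P1 heart against 8.34 in MEFs.

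Growth factor lists were lower or even. In the TGF-β, activin, BMP and CCN list 17 of 35 genes were lower and 2 higher (median -0.998). Fst, the activin trap follistatin, was listed at 1.77 in P1 heart against 179 in MEFs, and Bmp7 at 61.5 in P1 heart against 2.04 in MEFs. In the Wnt list 14 of 35 were lower and 2 higher (median -0.26): the ligand Wnt5a was at 7.48 in P1 heart against 279.8 in MEFs and the inhibitor Dkk2 at 4.82 in P1 heart against 270.5 in MEFs. The FGF and VEGF list split (10 of 32 higher, 8 lower, median 0.15), with Fgf1 at 107 in P1 heart against 4.34 in MEFs and the receptor Fgfr1 at 54.3 in P1 heart against 554 in MEFs. In the IGF and imprinted list 10 of 24 were lower and 1 higher (median -0.72), and Igfbp2, which binds IGFs outside the cell, was at 36.4 in P1 heart against 5507 in MEFs.

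At the other end of all genes stood Crabp1, a retinoic acid binding protein, listed at 2.57 in P1 heart against 2813 in MEFs, a difference of -10.09. Chodl was at least 534-fold lower, and C1qtnf3 was 189-fold, Egfl6 148-fold and Penk, which encodes enkephalins, 146-fold lower. The 15 lowest also held Hoxc6, Igfbp2, Lgr5, Spock3, Cxcl5, Hoatz, Fst, Chac1, Lhx9 and Col11a1, 85.1-fold to 159-fold lower, with Lgr5, Spock3, Hoatz and Lhx9 as lower bounds. Folds resting on P1 heart values near the blanks are loose here as well. A shift by 2 SD of the blanks, stopped at the lowest listed value, gives 117-fold to 309-fold for C1qtnf3. For Cxcl5 it gives 59.2-fold to 129-fold. None of 32 measured Hox genes was higher and 19 were lower (median -1.31). Hoxc6 was listed at 1.16 in P1 heart against 185 in MEFs, Hoxc8 was empty in P1 heart against 51.4 in MEFs and Hoxa13, a gene of the distal limb, was empty in P1 heart against 21.4 in MEFs. Regulators of limb and trunk mesenchyme were lower in 18 of 31 cases (median -1.33), with Tbx15 at 1.11 in P1 heart against 63.4 in MEFs and Pax1 at 3.42 in P1 heart against 175 in MEFs.

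Proliferation genes were nearly level while brakes on the cell cycle were not. Of 41 cell cycle genes none was higher and 2 were lower, with a median of -0.22. The 2 were the cyclins Ccnd2, at 436 in P1 heart against 2466 in MEFs, and Ccne1, at 23.00 in P1 heart against 91.7 in MEFs. Of the inhibitors and p53 targets 9 of 19 were lower (median -0.98). Cdkn2a, which encodes p16Ink4a and p19Arf and is known to accumulate in cultured fibroblasts, was at 2.84 in P1 heart against 101 in MEFs, and Cdkn1a, which encodes p21, at 46.5 in P1 heart against 666 in MEFs. Perp, a p53 target of cell junctions, was the 1 that was higher, at 1082 in P1 heart against 229.8 in MEFs.

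The MEF array also carried genes that mark macrophages. Of 19 macrophage and myeloid genes 16 were lower in P1 heart, with a median of -3.92, and 6 of the 7 short-list markers were lower, with sums of 405 in P1 heart and 6377 in MEFs and none of them empty on either array. C1qa and C1qb, subunits of complement C1q, were listed at 86.9 in P1 heart against 1895 in MEFs and at 62.4 in P1 heart against 1483 in MEFs. On that array interferon response genes were higher as well: 17 of 23 were lower in P1 heart (median -2.30), with Ifit3 at 2.68 in P1 heart against 96.5 in MEFs. Of the inflammatory secreted factors 14 of 25 were lower and 5 higher (median -1.86), with the chemokine Ccl2 at 167 in P1 heart against 1807 in MEFs. Under normexp with quantile normalisation the median of the inflammatory list came to -0.34. The TTF array carried macrophage genes too. In E12 heart against TTFs 17 of 19 macrophage and myeloid genes were lower and 1 higher (median -2.73). The short-list markers summed to 268 in E12 heart and 2217 in TTFs. In that pair 16 of 23 interferon response genes and 17 of 25 inflammatory factors were lower and none higher (medians -1.83 and -1.89). The macrophage signal moves with these lists and with matrix genes that macrophages share, such as Lgals3, and its part in them was not tested.

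Some housekeeping lists were lower too. None of 17 sterol synthesis genes was higher and 14 were lower (median -1.72), with Sqle, squalene epoxidase, at 44.3 in P1 heart against 655 in MEFs. None of 38 cytosolic ribosomal protein genes was higher and 16 were lower (median -0.90). Of the immediate early genes 10 of 22 were lower and 1 higher (median -0.61), with Egr1 at 289 in P1 heart against 1781 in MEFs. Tissue was compared with cultured cells here, and the source of a difference in culture, dissection or cell type cannot be told apart.

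A second heart and fibroblast pair shares no array with this one. In E12 heart against TTFs 2945 of 15883 genes (18.5%) were higher and 2883 (18.2%) lower. Blank spots averaged 14.2 on the P1 heart array and 15.3 on the MEF array, and 13.7 on the E12 heart array but 40.5 on the TTF array. By their array numbers P1 heart and MEFs share 1 series of arrays, while E12 heart and TTFs come from different ones. Of 2125 genes higher in P1 heart and measured in the second pair 912 (42.9%) were higher there and 98 (4.61%) lower, against 18.7% of all genes higher. Of 2550 lower genes 1440 (56.5%) were lower there and 113 (4.43%) higher, against 18.3% of all genes lower. The shared genes made up 31.4% of the genes higher and 50.6% of the genes lower in the second pair. Among genes at least 16-fold apart the shares were 89.0% of 219 and 87.0% of 154. Across 15534 genes, which are no independent replicates, the differences of the pairs correlated with a Pearson r of 0.62 and a Spearman rho of 0.52.

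List medians in the second pair were close to those of P1 heart against MEFs for some lists and not for others. For the thick filament the medians were 9.62 in P1 heart against MEFs and 9.07 in E12 heart against TTFs, and for endothelial genes they were 3.26 in P1 heart against MEFs and 3.42 in E12 heart against TTFs. For the thin filament they were 5.10 in P1 heart against MEFs and 6.64 in E12 heart against TTFs, for titin, Z-disc and M-band genes 4.12 in P1 heart against MEFs and 3.19 in E12 heart against TTFs, and for heart-enriched kinases and ubiquitin ligases 3.76 in P1 heart against MEFs and 1.78 in E12 heart against TTFs. For complex I they were 1.62 in P1 heart against MEFs and 0.09 in E12 heart against TTFs, for complexes II and III 2.21 in P1 heart against MEFs and 0.57 in E12 heart against TTFs, and for fatty acid use 2.65 in P1 heart against MEFs and 0.28 in E12 heart against TTFs. Fabp4 was listed at 97.7 in E12 heart against 284 in TTFs, and Ckm at 72.6 in E12 heart against 3.10 in TTFs, well under the P1 heart values. Cell cycle genes were the reverse case, with medians of -0.22 in P1 heart against MEFs and 2.92 in E12 heart against TTFs. Mki67, a proliferation marker named after its values were seen, was at 210.3 in P1 heart against 179 in MEFs and at 611 in E12 heart against 19.1 in TTFs. Limb and trunk regulators had medians of -1.33 in P1 heart against MEFs and -0.11 in E12 heart against TTFs. These differences between the pairs were not tested, and stage, fibroblast type and array series change together in them.

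**Figure D4:**
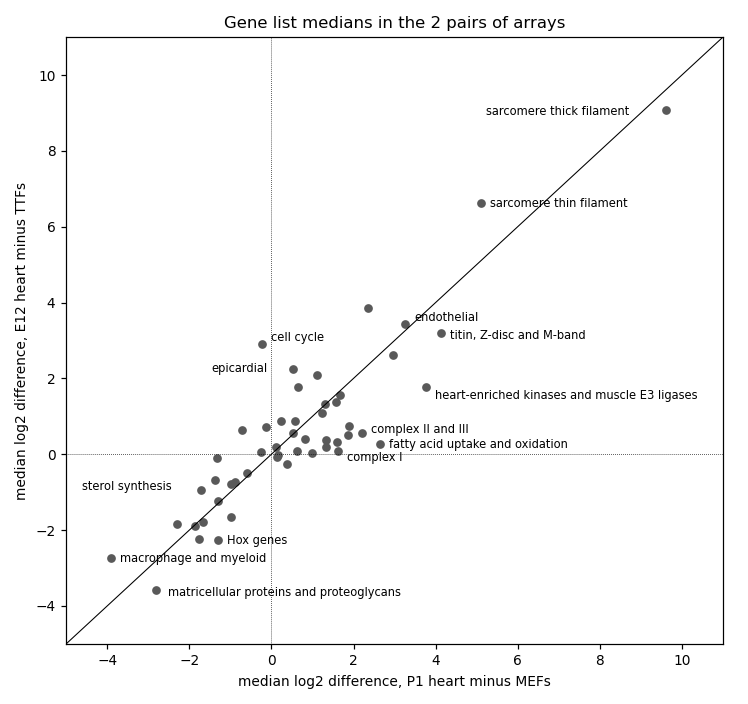
Median log2 difference of each gene list in E12 heart minus TTFs (vertical axis) against that in P1 heart minus MEFs (horizontal axis), 1 array per group, with a line of equal medians. The thick filament and endothelial lists lie within 1 of the line, the respiratory chain and fatty acid lists lie below it near 0 on the vertical axis, and the thin filament and cell cycle lists lie above it.

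The GMT iCMs can be placed on the distance between MEFs and P1 heart. For each gene at least 4-fold apart (5.06% of all genes higher and 5.56% lower), the value of an iCM array was expressed as a percentage of the log2 difference, with MEFs at 0 and P1 heart at 100, and the median over genes is given as the range over the 6 arrays. These figures use the MEF and P1 heart arrays on both sides and are a description, and by their array numbers the iCM arrays come from another series of arrays than MEFs and P1 heart, whose part was not tested. An empty value took its own array's lowest listed value, 0.689 for MEFs and 0.751 to 0.968 on the GMT iCM arrays. A higher gene empty in MEFs and in iCMs therefore stood above 0%. Over all 792 higher genes iCMs stood at 26.8% to 42.2%, and over the 870 of 871 lower genes with a value on the arrays used at 42.5% to 66.9%. Natriuretic peptides and secreted heart products stood at 71.1% to 89.8% and atrial and ventricular marker genes at 64.2% to 75.4%. Thick filament genes stood at 72.9% to 83.9%, those of titin, Z-disc and M-band at 58.5% to 72.6% those of the thin filament at 51.001% to 75.3% and those of the intercalated disc at 73.1% to 88.3%. Calcium genes stood at 47.7% to 67.2%, complex I at 34.0% to 53.6%, fatty acid use at 31.9% to 38.6%, cardiac regulators at 20.9% to 39.3% and endothelial genes at 6.84% to 11.3%. The transduced Gata4 and Tbx5, both at least 4-fold higher in P1 heart, were not left out of these medians, and their part was not tested. Towards the fibroblast side, matricellular genes stood at 64.4% to 100%, Hox genes at -5.82% to 17.97%, sterol synthesis at 14.7% to 39.7% and the p53 and inhibitor list at -14.2% to -2.37%. E12 heart stood at 99.4% for the Hox genes and at 86.2% for the p53 and inhibitor list. For complex I it stood at 30.7% and for fatty acid use at 21.6%, below the range of the GMT iCMs on both lists. Over all higher genes E12 heart stood at 63.8% and over all lower genes at 83.6%.

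Single genes were spread widely around these medians. Csrp3 was listed at 8368 to 10204 over the 6 GMT iCM arrays, and Myl7 at 25214 to 39029, above their P1 heart values. Myh6, whose promoter drove the sort, was at 1151 to 4020.5 and Tnnt2 at 13302 to 23257. Myl2, with the largest difference of all, stayed at 1.45 to 3.30, near the level of MEFs, and so did Kcne1 at 2.48 to 4.41 and Pln at 10.7 to 14.5. Ckm was at 4.83 to 9.73 and Cox8b at 9.36 to 43.6, near the fibroblast end. Gata4 and Tbx5 were at 3041 to 6268 and 1623 to 3449, far above either end. Both were transduced in these cells, and no source used here says whether their probes also read the vector. Hoxc6 was at 99.2 to 234, and Cdkn1a was at 1475 to 2629, above its MEF value.

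**Figure D5:**
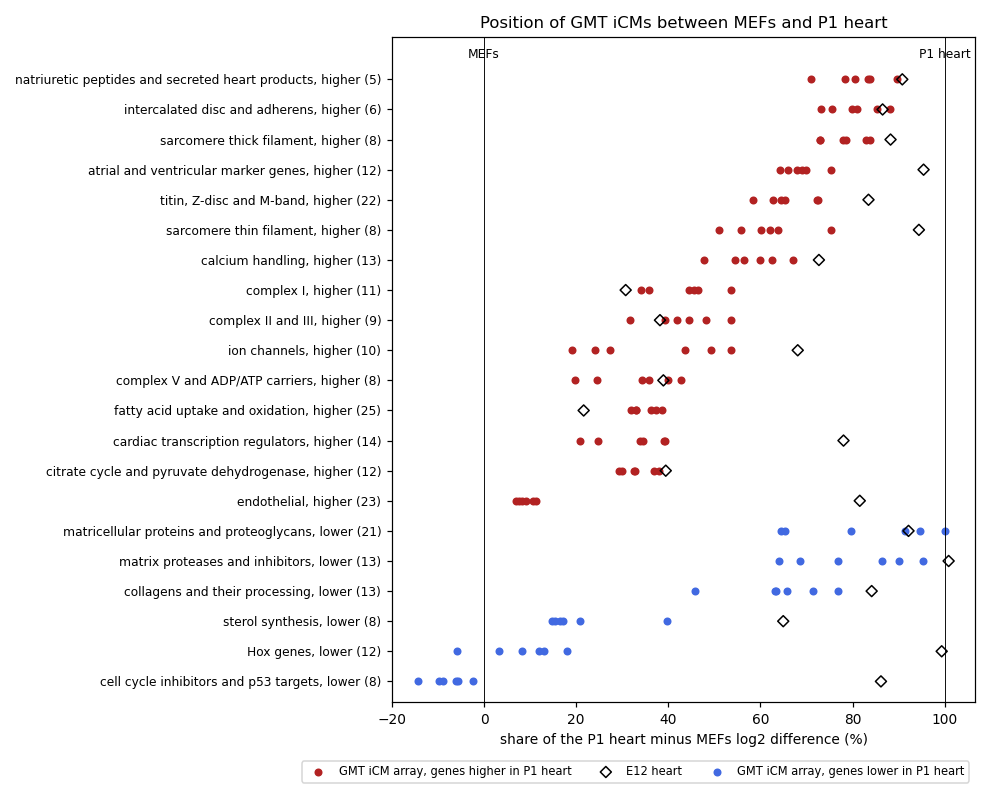
Position of the 6 GMT iCM arrays (filled points) and of E12 heart (open diamonds) between MEFs (0%) and P1 heart (100%), as the median over genes at least 4-fold apart of the share of the log2 difference, with the number of genes in brackets. Among the higher lists drawn, those of secreted heart products, the intercalated disc and the thick filament lie furthest towards P1 heart, and endothelial, Hox and p53 lists lie near or below the MEF end.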

How the data were processed

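P1 heart and MEFs were compared on 1 single-colour array each, read at 635 nm per the file headers. The intensity values are those the authors deposited. Their construction is not stated and was inferred from the files: each is the spot median less the mean of the blanks between the 5th and 95th percentile, scaled to a median of 25, and left empty under that mean plus 2 SD of the same blanks. A probe table named 16631 of 23473 probes, 12622 symbols being current, 3947 updated and 62 unmatched. The brightest probe stood for each gene. Values were put on the log2 scale, an empty value taking the array's lowest listed value, and genes listed on at least 1 of the arrays were kept. The 52 lists held 1262 genes, 1116 of them measured. Members and lists were chosen with earlier results of these data known. Genes named are a panel, the 5 members of each list furthest apart in either direction, and the 15 genes at each end of all genes, predicted genes passed over. Pairs of related genes, members that ran against their list and markers named singly were chosen after their values were seen. With 1 array per group nothing was tested, and their number limits the precision. Of 213 genes measured by several probes, 62.4% had probes within 1 on the log2 scale and 7 had probes 2-fold apart in opposite directions. Alternatives used normexp (limma 3.58.1, R 4.3.3, offset of 50), other scalings, pseudocounts, filters and probe rules. The code (Python 3.11.15, pandas 2.3.3) was tested on simulated data.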

Additional observations from a re-analysis of the deposited data

Results flagged for a closer look

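Cma1, which encodes a mast cell chymase, was the 1 gene that lay at least 8-fold apart in opposite directions in the pairs of heart and fibroblast arrays. It was listed at 52.6 in P1 heart against 1.11 in MEFs, a log2 difference of 5.56, and at 1.43 in E12 heart against 18.2 in TTFs, a log2 difference of -3.67. Over the 6 GMT iCM arrays it was listed at 2.92 to 67.9. The difference between the pairs was not tested, with 1 array per group. In all 211 of 15534 genes were at least 2-fold apart in opposite directions.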

How the results depend on the processing

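The counts of genes apart depended on the background correction and the scaling after it, on an added pseudocount and on the fold chosen. Instead of 2159 higher and 2557 lower genes, the scanner signals with normexp gave 948 and 1045 after quantile normalisation and 617 and 1662 after median centring, a pseudocount of 5 gave 1306 higher, a pseudocount of 25 gave 855 and 1321, and a fold of 4 gave 792 and 871. Quantile normalisation of the pair, centring, the limits on dim genes and the median probe left both counts within 1.5 times, as did local surround subtraction, which moved the median of all genes to -0.21 and shared 1272 of the higher and 2072 of the lower genes. The share apart the same way in E12 heart against TTFs was 31.4% to 43.1% for higher and 43.2% to 59.0% for lower genes over the alternatives run. Of 265 named genes 5 turned direction, all under local surround subtraction: Cox5a to -1.24, Cox7b to -0.41, Fcer1g to 3.11, Mmp14 to 0.79 and Tbx5 to -0.67. The cause was not tested. List medians past 1 kept their sign under every alternative run, but under normexp with quantile normalisation 13 of them came within 1, for example Hox genes at -0.30. No paired analysis was possible because each group has 1 array and the labels give no replicate numbers, and for the same reason no replicate could be left out. Other scanner gains were not run, since the files hold 1 merged spot value. Values under about 2 lie close to the blanks, so folds of such genes are the least certain.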

Other observations

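Lists of other tissues were read against 13.8% of all genes higher and 16.3% lower. Of cartilage and bone genes 2 of 17 were higher (11.8%) and 4 lower (23.5%, median 0.15), with Spp1, osteopontin, which macrophages also make, at 252 in P1 heart against 1703 in MEFs. Of neural and Schwann genes 2 of 18 were higher (11.1%) and 5 lower (27.8%, median -0.13), with the neurotrophin receptor Ngfr at 4.60 in P1 heart against 64.6 in MEFs and Fabp7 at 60.5 in P1 heart against 639 in MEFs. Of epithelial genes 2 of 10 were higher and none lower (median 0.39), of adipocyte genes 4 of 11 were higher (36.4%) and 1 lower (median 0.82), and of lung, liver and thymus genes 5 of 14 were higher (35.7%) and 1 lower (median 0.54). Dgat2, an enzyme of triglyceride synthesis, was listed at 105 in P1 heart against 5.36 in MEFs, and Ttr, transthyretin, at 10.4 in P1 heart against 1.09 in MEFs. Of the 30 panel genes 28 were measured, 21 higher and 6 lower. Chac1, a glutathione-degrading enzyme of the stress response, was listed at 4.15 in P1 heart against 417 in MEFs and at 4.39 in E12 heart against 506 in TTFs.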
